A study of Mus musculus with 12 samples.

Results

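Axon guidance ligands and receptors were described across cultures labelled as primary neurons, under 2 models of neuronal ageing. Genes were taken by symbol from 9 families: the semaphorins (Sema3 to Sema7 genes), plexins, neuropilins, netrins, netrin receptors (Dcc and the Unc5 genes), Slits, Robos, Eph receptors and ephrins. A gene was a member where its mean over the 6 libraries of a table was at least 1 FPKM (fragments scaled by library total and transcript length, so that levels compare between genes). The rule found 62 members in at least 1 table, 61 of them in the table of the oncogene model and 59 in that of the chemical model, among 69 matching symbols and 18607 genes listed in either table. All libraries are labelled as primary neurons of C57BL/6 mice, collected 10 days into a treatment, with 3 libraries in each of 4 groups. Markers of other cell types were also measured in them, as given below. The oncogene model over-expressed H-Ras(G12V), in which the GTPase H-Ras is locked in its active state, from an adeno-associated virus (AAV). Its controls are tagged mCherry, which is a red fluorescent protein. The chemical model used etoposide, which traps topoisomerase II on broken DNA, with DMSO as the control. The etoposide and DMSO cells are labelled wild type, as are the mCherry controls. The promoter of the virus, the cell type it reaches, the dose of etoposide and the brain region are not given in the sources used here. Nor do the labels say if the 3 libraries of a group are separate cultures or animals, so a p-value here covers only library-to-library spread, part of which may be technical.

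Guidance cues steer growing axons and migrating neurons, and many of them stay in use in mature neurons and glia. Netrins bind Dcc, which mediates attraction, and the Unc5 receptors, which mediate repulsion. Secreted class 3 semaphorins act through neuropilins that pair with plexins, while most transmembrane semaphorins bind plexins directly. Slits repel through Robo receptors, and membrane-bound ephrins signal through the Eph receptor tyrosine kinases, with signalling in both directions.

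Labels of the 6 libraries of the chemical model conflict, since a library titled etoposide is tagged as DMSO-treated and the reverse. Titles were used here, as the columns of the deposited table carry the titled names, and every direction holds for the libraries titled etoposide. Hras itself stood at 38.41, 51.63 and 33.46 FPKM with H-Ras(G12V) and 45.94, 42.98 and 44.20 FPKM with mCherry, so the groups overlapped and its level does not check the labels. No source used here says whether reads of the viral H-Ras(G12V) are counted under this symbol. Single libraries of 3 groups stood apart. mCherry library 3 was closer to the H-Ras(G12V) mean than to the mean of the other mCherry libraries for 28 of 61 members (45.9%) and for 52.1% of all tested genes. Etoposide library 3 was closer to the DMSO mean than to that of the other etoposide libraries for 50 of 59 members (84.7%) and for 78.2% of all tested genes. DMSO library 3 was closer to the etoposide mean than to that of the other DMSO libraries for 26 of 59 members (44.1%) and for 40.6% of all tested genes. Values without mCherry library 3 or etoposide library 3 are given beside many of the members whose calls they change, and DMSO library 3 is named where its level lies near those of etoposide libraries. Depth, estimated roughly from the steps of low FPKM values, was 15500000 to 17400000 fragments per library in the oncogene table and 25000000 to 29600000 in the chemical table.

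Markers of other cell types than neurons were measured in the same libraries, and some of their sums differed between the groups. Neuron markers summed to 2199 to 2600 FPKM with H-Ras(G12V) and 3340 to 3512 FPKM with mCherry, with 1 of 21 higher and 4 lower by the limma test described below. Of all tested genes, that test called 10.3% higher and 6.67% lower with H-Ras(G12V), and 0% and 0.453% with etoposide. Oligodendrocyte-lineage markers summed to 938 to 1140 FPKM with H-Ras(G12V) and to 300.3, 233 and 774 FPKM in mCherry libraries 1, 2 and 3, and 8 of 11 rose. Astrocyte markers summed to 2658 to 3807 FPKM with H-Ras(G12V) and to 1241, 1247 and 3231 FPKM with mCherry, with 3 of 12 higher. Fibroblast, meningeal and mural markers summed to 45.5 to 48.4 FPKM with H-Ras(G12V) and 205 to 299 FPKM with mCherry, and 10 of 11 fell. With etoposide, neuron markers summed to 1212, 2619 and 4253 FPKM in libraries 1, 2 and 3 and to 3746 to 3828 FPKM with DMSO. Oligodendrocyte-lineage markers summed to 121, 79.5 and 220.2 FPKM with etoposide and to 543 to 909 FPKM with DMSO, where 3 of 9 fell, among them Sox10 at 0.01 to 0.14 FPKM against 18.81 to 25.35 FPKM. Neural progenitor markers summed to 5487 to 6457 FPKM with H-Ras(G12V) and 3153 to 3793 FPKM with mCherry (5 of 10 rose), and to 555 to 1029 FPKM with etoposide and 2005 to 2559 FPKM with DMSO (2 of 9 fell). Astrocyte sums were 634 to 996 FPKM with etoposide and 1095 to 1655 FPKM with DMSO, fibroblast, meningeal and mural sums 454, 92.99 and 298 FPKM against 143 to 431 FPKM, and none of these genes was called. Microglial markers summed to 35.1 to 58.5 FPKM with H-Ras(G12V) and 19.9 to 24.7 FPKM with mCherry, and to 149, 107 and 28.6 FPKM with etoposide and 23.0 to 49.4 FPKM with DMSO. Endothelial sums stayed at 0.91 to 6.38 FPKM in every library. Of the tested microglial markers, 2 of 3 rose with H-Ras(G12V) and 0 of 4 were called with etoposide. Single markers in these lists stayed low, with the endothelial Cldn5 at 0 to 0.10 FPKM and the microglial Cx3cr1 at 0 to 0.31 FPKM. The microglial sums above thus come from other genes of that list. In bulk RNA, fewer cells of a type and less RNA per cell cannot be told apart, and the part of these markers in the results below was not tested.

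With all libraries, each of the 9 families held at least 1 gene called as different with H-Ras(G12V). Of the 61 members, 27 were called at an adjusted p under 0.05, 10 higher and 17 lower, against 17% of all 12724 tested genes (10.3% higher and 6.67% lower). Calls come from limma on log2(FPKM + 1), fitted over all tested genes with Benjamini-Hochberg adjustment. At an unadjusted p under 0.05 were 36 members, against 34.4% of all tested genes. The median difference of the members was -0.47 on the log2(FPKM + 1) scale and that of all tested genes 0.05. The median absolute difference was 0.68 for the members and 0.28 for all tested genes. The groups did not overlap for 12 members that were higher and 22 that were lower, against 23.7% and 16.6% of all tested genes (40.3% in either direction). The count of calls rested on single libraries. It was 43 (11 higher, 32 lower) without mCherry library 3, where 45% of all tested genes were called, 25.4% higher and 19.5% lower. The controls left in that fit, mCherry libraries 1 and 2, were nearly alike (Spearman rank correlation 0.997 over all tested genes). The p-values without mCherry library 3 thus rest on a very small spread of the controls. Omitting H-Ras(G12V) library 1 left 7 (5 higher, 2 lower), library 2 left 18 (7 and 11) and library 3 left 11 (6 and 5), against 3.98% (2.43% and 1.56%), 9.1% (5.32% and 3.78%) and 5.67% (3.55% and 2.11%) of all tested genes. Omitting either mCherry library 1 or mCherry library 2 left 9 (5 higher, 4 lower), against 4.86% in both fits (2.98% and 1.89% without library 1, 2.89% and 1.96% without library 2). Lower calls thus outnumbered higher ones in the fits with all libraries, without H-Ras(G12V) library 2 and without mCherry library 3, and not in the other 4. Of the members that rose, 2 (Epha2 and Efna1) had control means under 1 FPKM and reached the minimum only through the H-Ras(G12V) libraries. With no minimum level 18 members were called, 8 higher and 10 lower, against 1337 and 762 of all 17602 tested genes. Efna3, Epha3, Epha5, Ntn4, Plxna2, Plxnb3, Sema4f, Unc5a and Unc5c lost their calls there (limma, adjusted p 0.0533 to 0.07). Rescaling moved the median of all tested genes from 0.05 as deposited to -0.07 with a common library sum and -0.01 with medians of ratios. The split of all calls changed with it, from 1312 higher and 849 lower to 861 and 1331, and to 1051 and 1083. Members split into 9 higher and 19 lower with the common sum and 10 and 18 with medians of ratios.

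**Figure D1:**
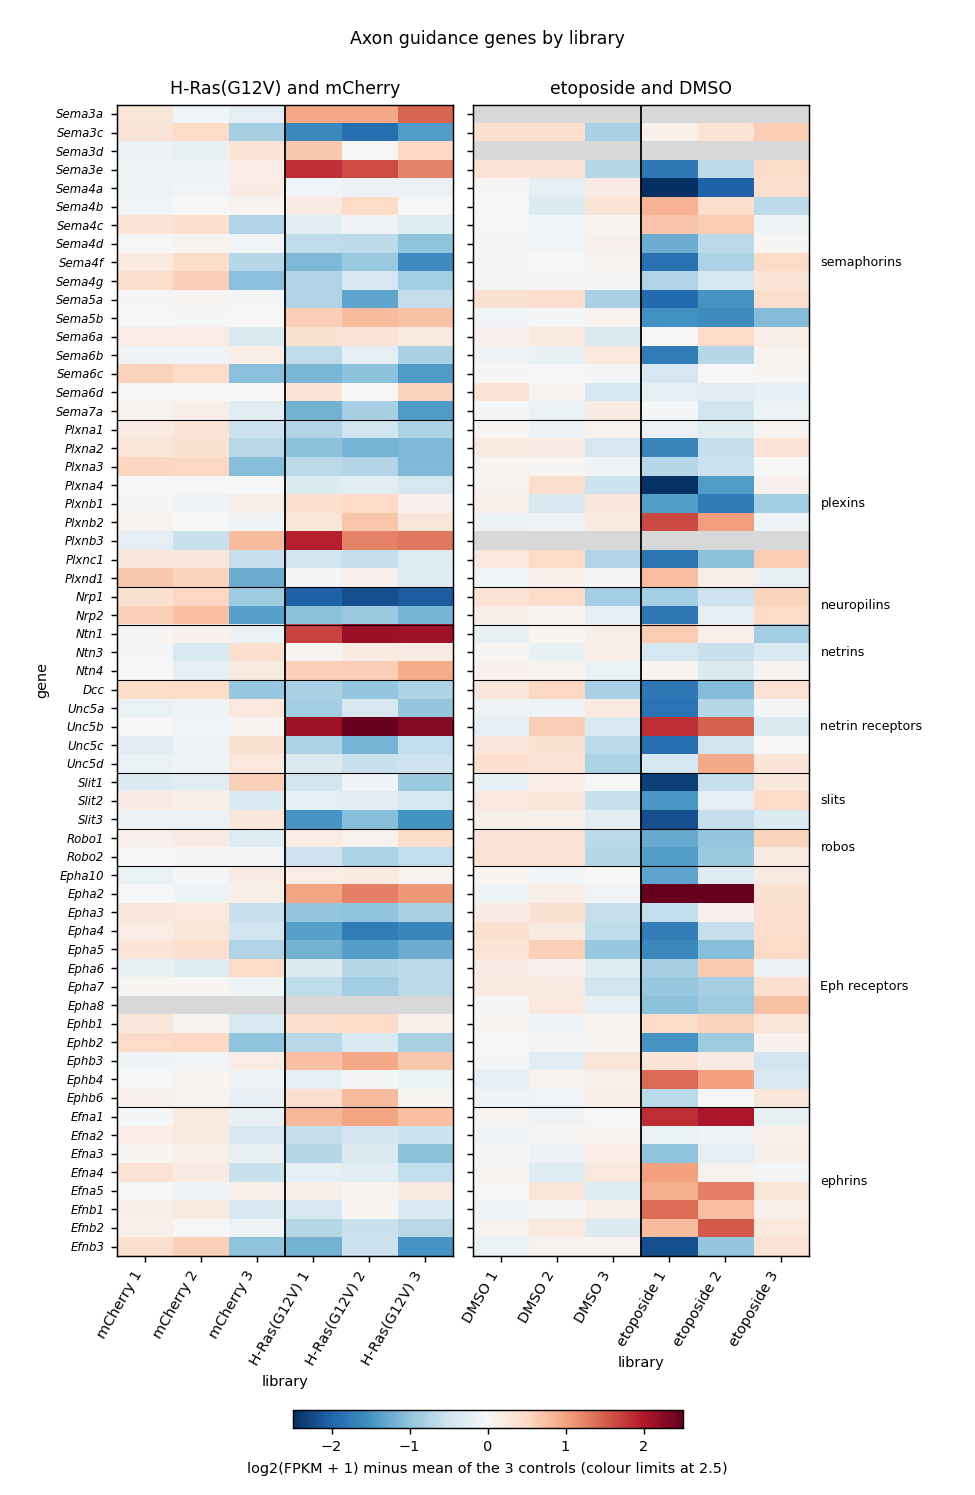
Members by library, grouped by family from semaphorins (top) to ephrins (bottom). Colour gives log2(FPKM + 1) in each library minus the mean of the 3 control libraries of its table, red above and blue below, with grey for genes whose mean was under 1 FPKM in that table. Etoposide library 3 is pale for most members where etoposide libraries 1 and 2 are not, and mCherry library 3 departs from mCherry libraries 1 and 2.

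Of the 3 netrins 2 rose with H-Ras(G12V), and the netrin receptor Unc5b had the largest rise of all members. Ntn1, the secreted netrin-1, stood at 13.15, 18.37 and 18.21 FPKM with H-Ras(G12V) and at 3.51, 3.76 and 2.95 FPKM with mCherry. The lowest H-Ras(G12V) library was well above the highest control, with a mean 4.87-fold higher and a difference of 1.99 ± 0.17 (SE) on the log2(FPKM + 1) scale (limma, adjusted p = 0.00195). Ntn4, a basement-membrane netrin, was at 5.11, 5.21 and 6.72 FPKM against 3.07, 2.48 and 3.74 FPKM, which did not overlap (1.83-fold higher, adjusted p = 0.0335). Its call did not survive the omission of any library but mCherry library 3 (adjusted p 0.0713 to 0.123), nor rescaling to the common sum (adjusted p = 0.0557). Ntn3 was measured at 2.41 and 2.10 FPKM with an adjusted p of 0.611. The summed level of the 3 netrins was 20.4 to 27.4 FPKM with H-Ras(G12V) and 7.55 to 9.71 FPKM with mCherry.

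Unc5b, a netrin receptor that also serves vascular patterning, was at 8.23, 11.59 and 9.48 FPKM with H-Ras(G12V) and 1.12, 1.03 and 1.22 FPKM with mCherry. It was 8.69-fold higher, with a difference of 2.33 ± 0.15 (SE) in log2(FPKM + 1) (limma, adjusted p = 0.00095). No library of either group came near the other group. The calls of Unc5b and Ntn1 passed under each of the 16 alternatives run for them in this comparison. Its relatives were lower. Unc5c stood at 4.73, 3.38 and 5.38 FPKM against 7.19, 7.93 and 11.78 FPKM and fell (1.99-fold lower, adjusted p = 0.0419), and Unc5a stood at 12.16, 17.31 and 11.39 FPKM against 20.64, 21.37 and 28.06 FPKM and fell (1.71-fold lower, adjusted p = 0.0423). In both genes the groups did not overlap. The call of Unc5c did not survive the omission of any library but mCherry library 3 (adjusted p 0.071 to 0.115). That of Unc5a ended on omitting H-Ras(G12V) library 1 (0.141) or 3 (0.144) or mCherry library 1 (0.0865) or 2 (0.101). Dcc, the attractive netrin receptor, was at 7.17, 6.34 and 7.38 FPKM with H-Ras(G12V) and 18.70, 19.23 and 6.48 FPKM with mCherry. Its level in mCherry library 3 lay among those of the H-Ras(G12V) libraries and it was not called (adjusted p = 0.155). Without that library, which left the closely alike mCherry libraries 1 and 2, its difference was -1.33 ± 0.11 (SE) and its adjusted p 0.000128.

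Semaphorins split in both directions, with 3 of 17 members higher and 5 lower. Sema3e, a secreted ligand that binds Plxnd1 directly, was at 26.73, 23.12 and 17.49 FPKM with H-Ras(G12V) and 6.22, 6.38 and 7.91 FPKM with mCherry. Every H-Ras(G12V) library was above every control (3.28-fold higher, difference 1.57 ± 0.18 (SE), limma adjusted p = 0.00403), and the call held whichever library was omitted. Sema3a, the repellent that collapses growth cones through Nrp1, stood at 5.17, 5.15 and 7.65 FPKM against 2.89, 2.01 and 1.68 FPKM and rose (2.73-fold higher, adjusted p = 0.0155). The groups of Sema3a did not overlap, but the call ended on omitting H-Ras(G12V) library 1 (0.0544) or 3 (0.0539) or mCherry library 2 (0.0586). Sema5b, a transmembrane semaphorin with thrombospondin repeats, stood at 12.61, 14.51 and 13.85 FPKM against 8.01, 7.78 and 7.96 FPKM. The controls lay within a narrow range below all H-Ras(G12V) libraries (1.73-fold higher, adjusted p = 0.0102), and the call ended on omitting mCherry library 1 (0.0509) or 2 (0.0542).

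Sema3c, a secreted ligand of neuropilin complexes, had the strongest drop of the semaphorins, from 14.00, 16.01 and 5.77 FPKM with mCherry to 2.94, 2.24 and 3.58 FPKM with H-Ras(G12V). The lowest control, mCherry library 3, was still above the highest H-Ras(G12V) library (4.08-fold lower, adjusted p = 0.0244). Sema7a, the GPI-anchored semaphorin, stood at 13.51, 17.34 and 11.22 FPKM against 33.61, 36.00 and 26.47 FPKM and fell (2.28-fold lower, adjusted p = 0.0115). Its groups did not overlap. Sema4f was at 7.11, 8.28 and 4.91 FPKM against 19.92, 23.40 and 9.80 FPKM, with H-Ras(G12V) library 2 just under mCherry library 3 (2.62-fold lower, adjusted p = 0.0459). Sema5a was at 5.52, 3.37 and 6.23 FPKM against 9.60, 10.53 and 9.71 FPKM, which did not overlap (1.97-fold lower, adjusted p = 0.028). The fifth semaphorin that fell, Sema4d, a ligand of Plxnb1, averaged 13.3 ± 1.97 and 23.0 ± 1.20 FPKM (SD, n = 3, adjusted p = 0.0155) and is named after its values were seen. The calls of Sema3c and Sema4f did not survive the omission of any library but mCherry library 3 (adjusted p 0.0691 to 0.0894 and 0.0915 to 0.15). Sema7a lost its call on omitting H-Ras(G12V) library 1 (0.0555), and Sema5a on omitting H-Ras(G12V) library 1 (0.079) or mCherry library 1 (0.0819) or 2 (0.0965). Sema4d lost it on omitting H-Ras(G12V) library 1 (0.0532) or 3 (0.0521) or mCherry library 1 (0.0633) or 2 (0.0689). Sema6d, the most abundant semaphorin in this table, was at 40.75, 31.93 and 48.05 FPKM against 31.46, 31.99 and 31.79 FPKM and was not called (adjusted p = 0.21).

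Receptors of the semaphorins were lower where they were called, apart from Plxnb3. Nrp1, the co-receptor of Sema3a that also binds VEGF, stood at 14.90, 13.02 and 14.31 FPKM with H-Ras(G12V) and 82.45, 91.46 and 33.52 FPKM with mCherry. All H-Ras(G12V) libraries lay under the lowest control, mCherry library 3 (4.91-fold lower, difference -2.10 ± 0.36 (SE), limma adjusted p = 0.0126), and the call ended on omitting H-Ras(G12V) library 1 (0.0533), 2 (0.0573) or 3 (0.0515). Nrp2, which binds other class 3 semaphorins, was at 21.78, 23.30 and 19.53 FPKM against 68.75, 76.81 and 17.10 FPKM. The groups overlapped through mCherry library 3 and Nrp2 was not called (adjusted p = 0.208). Without that library, which left the closely alike mCherry libraries 1 and 2, its difference was -1.71 ± 0.11 (SE) and its adjusted p 5.96e-05. Plxna2, a class A plexin, stood at 18.09, 16.39 and 16.83 FPKM against 46.79, 49.70 and 22.90 FPKM and fell (2.33-fold lower, adjusted p = 0.0409). The groups of Plxna2 did not overlap. Its call did not survive the omission of any library but mCherry library 3 (adjusted p 0.114 to 0.125).

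Plxnb3, a class B plexin enriched in oligodendrocytes, was at 12.59, 7.43 and 7.91 FPKM with H-Ras(G12V) and 2.04, 1.41 and 5.14 FPKM with mCherry. It rose 3.25-fold (adjusted p = 0.0343), with mCherry library 3 between the other controls and the H-Ras(G12V) libraries. The oligodendrocyte-lineage sum of mCherry library 3 likewise lay between, at 1092, 938 and 1140 FPKM with H-Ras(G12V) and 300.3, 233 and 774 FPKM with mCherry, and its part in this result was not tested. The call of Plxnb3 did not survive the omission of any library but mCherry library 3 (adjusted p 0.084 to 0.119). Plxnb2, the most abundant plexin of the H-Ras(G12V) libraries, was at 42.66, 56.03 and 42.70 FPKM against 36.62, 34.50 and 32.25 FPKM and was not called (adjusted p = 0.0802), although its groups did not overlap. Plxna1 was at 20.91, 25.37 and 20.42 FPKM against 41.70, 45.63 and 24.46 FPKM and was not called with all libraries (adjusted p = 0.0936). Without mCherry library 3 its adjusted p was 0.000878.

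Slits and Robos were lower or not called. Slit3 stood at 3.90, 5.54 and 3.86 FPKM with H-Ras(G12V) and 11.39, 11.41 and 15.59 FPKM with mCherry, with all H-Ras(G12V) libraries under all controls (2.89-fold lower, difference -1.34 ± 0.18 (SE), limma adjusted p = 0.00668). This call held whichever library was omitted. Slit1, at 9.48, 12.65 and 6.71 FPKM against 10.65, 11.32 and 21.13 FPKM, and Slit2, at 10.79, 10.35 and 9.07 FPKM against 14.87, 14.32 and 9.58 FPKM, were not called (adjusted p = 0.28 and 0.27). Without mCherry library 3 the adjusted p of Slit2 was 0.0101. Robo2 was at 7.07, 5.72 and 6.61 FPKM against 10.62, 10.81 and 10.34 FPKM. It fell (1.64-fold lower, adjusted p = 0.0173) with a gap between the groups, and the call ended on omitting H-Ras(G12V) library 1 (0.0581) or 3 (0.0656) or mCherry library 1 (0.0761) or 2 (0.0803). Robo1 was at 8.32, 7.74 and 10.26 FPKM against 7.84, 8.47 and 5.61 FPKM and its groups overlapped (adjusted p = 0.378).

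Among 12 Eph receptors, 2 rose and 4 fell. Epha2, a receptor best known from epithelia, went from 0.32, 0.23 and 0.47 FPKM with mCherry to 1.66, 2.19 and 1.84 FPKM with H-Ras(G12V). All H-Ras(G12V) libraries were above all controls (5.58-fold higher, difference 1.11 ± 0.15 (SE), limma adjusted p = 0.00696), and the call held whichever library was omitted. With a mean of 1.12 FPKM over the table, Epha2 was the member closest above the minimum in this table, and Epha8, at 0.97 FPKM, lay just under it. Epha2 reached the minimum only through the H-Ras(G12V) libraries, so its values from fits with the minimum are a description only. With no minimum its adjusted p was 0.00501. In a single limma fit over the 12 libraries, with the minimum, Epha2 was not called (adjusted p = 0.407). Ephb3 stood at 7.61, 8.86 and 7.06 FPKM against 3.70, 3.84 and 4.76 FPKM and rose (1.91-fold higher, adjusted p = 0.0153). Its groups did not overlap, and the call ended on omitting H-Ras(G12V) library 1 (0.0656) or mCherry library 1 (0.0674) or 2 (0.0677).

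Epha4, the most abundant Eph receptor here and a receptor for ephrins of both classes, fell from 63.70, 69.09 and 40.24 FPKM with mCherry to 21.41, 16.13 and 17.42 FPKM with H-Ras(G12V). The groups were far apart (3.15-fold lower, difference -1.58 ± 0.22 (SE), limma adjusted p = 0.00731), and the call held whichever library was omitted. Epha5 was at 6.45, 5.48 and 6.15 FPKM against 19.96, 21.75 and 8.93 FPKM (2.8-fold lower, adjusted p = 0.0354). Epha3 was at 1.31, 1.24 and 1.56 FPKM against 4.5, 4.45 and 2.07 FPKM (2.68-fold lower, adjusted p = 0.0439). In both genes mCherry library 3 was the lowest control and still above every H-Ras(G12V) library. Their calls did not survive the omission of any library but mCherry library 3 (adjusted p 0.104 to 0.112 for Epha5 and 0.113 to 0.143 for Epha3). Epha7 was at 8.41, 6.99 and 8.19 FPKM against 14.28, 14.12 and 12.66 FPKM and fell with no overlap (1.74-fold lower, adjusted p = 0.0124). It lost the call on omitting H-Ras(G12V) library 1 (0.0527) or mCherry library 1 (0.0623) or 2 (0.0612). Ephb6, a kinase-inactive receptor, was at 15.45, 20.21 and 11.81 FPKM against 12.22, 12.08 and 9.58 FPKM and was not called (adjusted p = 0.185).

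Of the 8 ephrins, Efna1 rose and Efna3 and Efnb2 fell. Efna1, the main ligand of Epha2, stood at 2.46, 2.84 and 2.26 FPKM with H-Ras(G12V) and 0.89, 1.27 and 0.71 FPKM with mCherry. The lowest H-Ras(G12V) library was above the highest control (2.63-fold higher, difference 0.85 ± 0.16 (SE), limma adjusted p = 0.0175). Its control mean of 0.957 FPKM was under the minimum, so its values from fits with the minimum are a description only. With no minimum its adjusted p was 0.0181. In a single limma fit over the 12 libraries, with the minimum, Efna1 was not called (adjusted p = 0.343). The call ended on omitting H-Ras(G12V) library 1 (0.0729), 2 (0.0567) or 3 (0.0534) or mCherry library 1 (0.071). Efnb2, a transmembrane ligand for B-class Eph receptors and Epha4, stood at 13.03, 14.63 and 13.20 FPKM against 24.31, 21.92 and 20.08 FPKM and fell with no overlap (1.62-fold lower, adjusted p = 0.0159). Efna3 was at 14.82, 19.24 and 11.82 FPKM against 25.95, 27.52 and 21.75 FPKM, with no overlap either (1.64-fold lower, adjusted p = 0.0475). Both calls ended on omitting H-Ras(G12V) library 1 (0.0762 for Efnb2, 0.141 for Efna3) or 3 (0.0693, 0.141) or mCherry library 1 (0.0761, 0.142) or 2 (0.0695, 0.154). Efnb3, the member with the highest mean in the controls, was at 28.43, 44.96 and 23.26 FPKM against 87.73, 100.14 and 32.54 FPKM. H-Ras(G12V) library 2 lay above mCherry library 3, and Efnb3 was not called with all libraries (adjusted p = 0.138). Without mCherry library 3 its adjusted p was 0.00191.

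**Figure D2:**
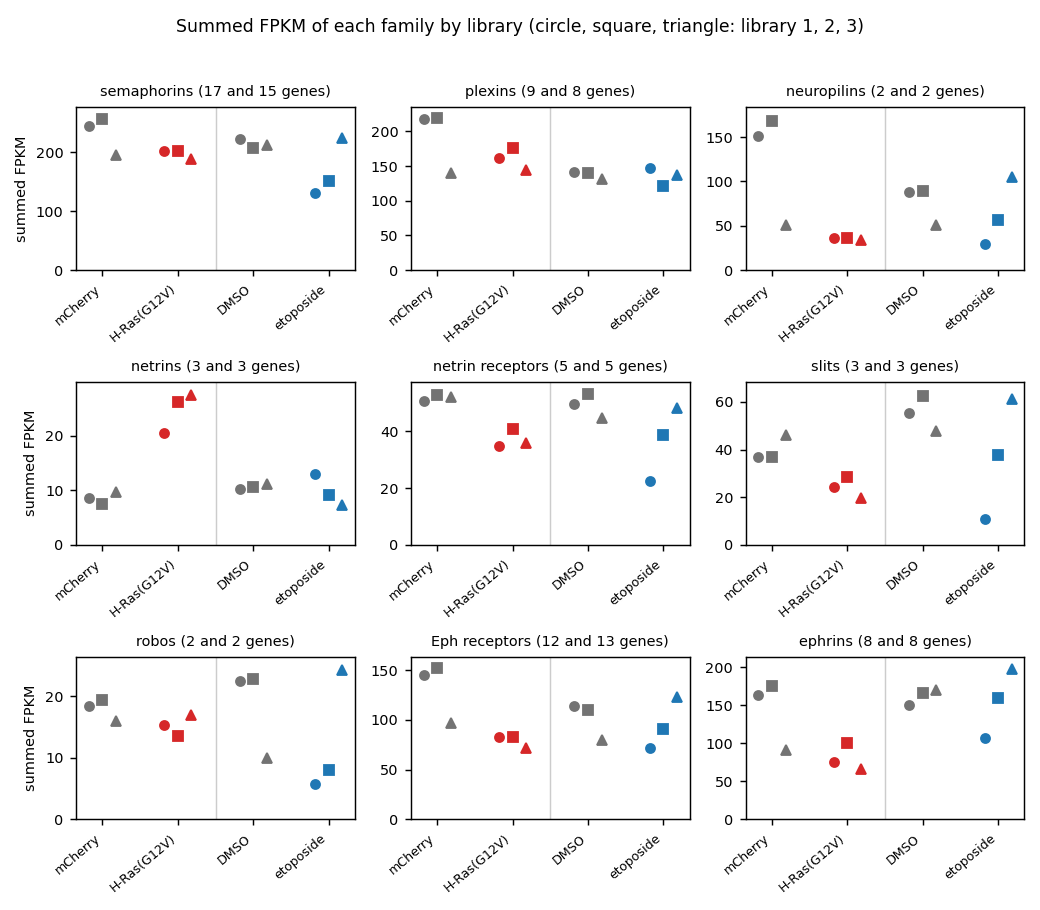
Summed FPKM of the members of each family in each library (circle, square and triangle for libraries 1, 2 and 3), by group, with axes from 0. The netrin sum is higher in all H-Ras(G12V) libraries, at 20.4 to 27.4 FPKM against 7.55 to 9.71 FPKM. The neuropilin sum lies at 33.8 to 36.7 FPKM with H-Ras(G12V) and at 151, 168 and 50.6 FPKM with mCherry.

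Genes that act beside or below these receptors were counted from lists that share no member with them. Of 50 tested effectors of guidance receptors, 4 rose and 3 fell with H-Ras(G12V), a share under the 17% of all tested genes that were called. Myo10, a filopodial myosin that carries netrin receptors, was at 39.79, 39.64 and 37.83 FPKM against 16.08, 16.47 and 21.40 FPKM (limma, adjusted p = 0.00531). The small GTPase Rras (adjusted p = 0.0201) and the plexin effector Mical1 (adjusted p = 0.0499) also rose. Cdk5r1, the p35 activator of the kinase Cdk5, fell from 86.05, 92.85 and 55.93 FPKM to 30.66, 32.48 and 24.23 FPKM (adjusted p = 0.0104), and so did the Slit-Robo GTPase-activating protein Srgap3 (adjusted p = 0.0145) and Enah (adjusted p = 0.0433). The count of 7 became 29 (9 higher, 20 lower) on omitting mCherry library 3, where 45% of all tested genes were called, 3 on omitting H-Ras(G12V) library 3, and 2 on omitting H-Ras(G12V) library 1, mCherry library 1 or mCherry library 2. Of 28 other guidance and adhesion genes none rose and 7 fell, against 10.3% and 6.67% of all tested genes, with the largest differences in Ntng2, Chl1, Ptprd and Lingo1. Ptprd, a receptor phosphatase, was at 7.92, 5.97 and 8.65 FPKM against 19.10, 20.37 and 16.74 FPKM (adjusted p = 0.0059). Medians of the lists were -0.10 and -0.20 in log2(FPKM + 1), beside 0.05 for all tested genes.

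**Figure D3:**
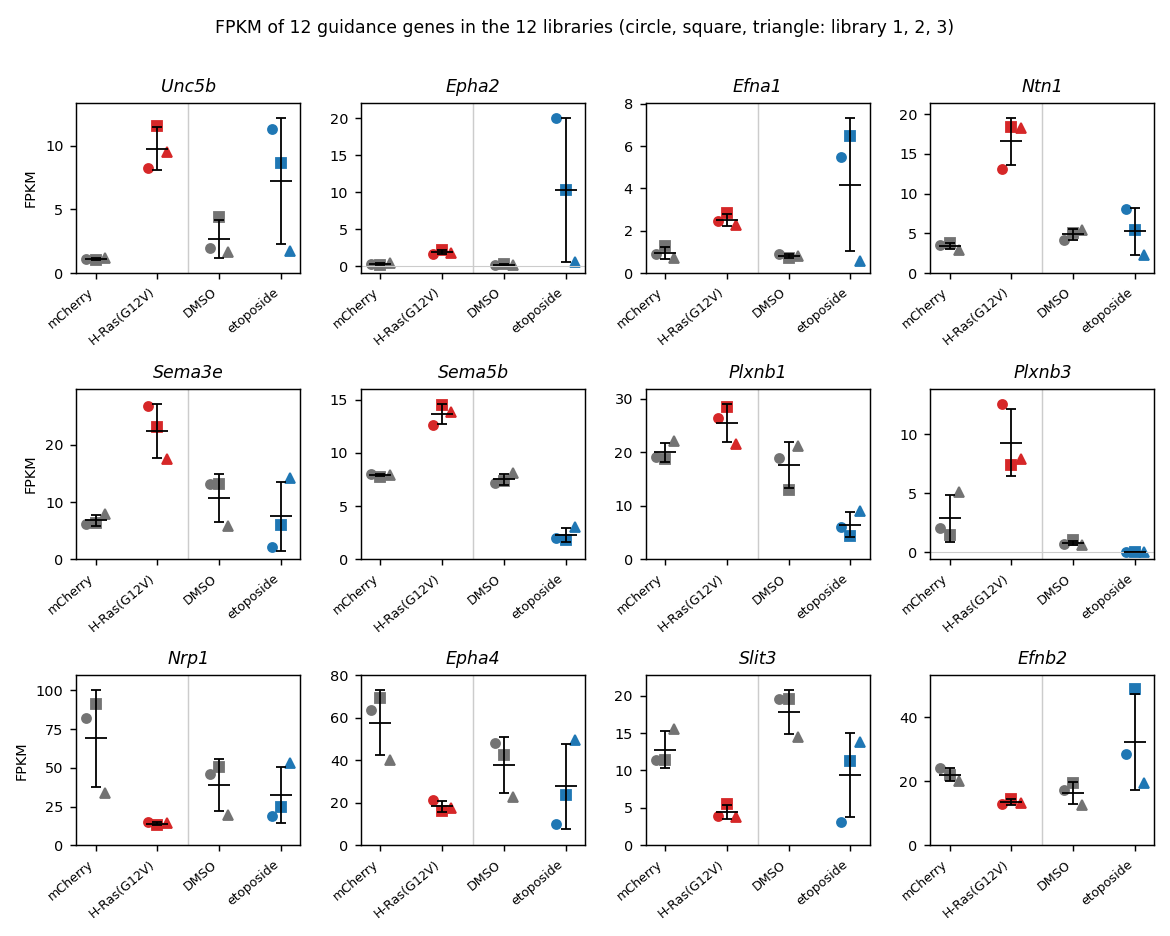
FPKM of 12 members in each library (circle, square and triangle for libraries 1, 2 and 3), with the group mean and SD in black. Unc5b, Epha2 and Efna1 are higher in all H-Ras(G12V) libraries and in etoposide libraries 1 and 2, while etoposide library 3 lies at 1.72, 0.60 and 0.59 FPKM. Sema5b is higher with H-Ras(G12V) and lower in all 3 etoposide libraries.

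With etoposide, the 3 libraries disagreed and no member was called. At an adjusted p under 0.05, 0 of 59 members passed in limma, against 0.453% of all 12371 tested genes, and 6 passed at an unadjusted p under 0.05, against 13.9% of all tested genes. In a single limma fit over the 12 libraries 2 members were called, both lower, Sema5b (adjusted p = 0.00169) and Plxnb1 (0.0188). Of all 12179 genes in that fit, 25 were higher and 150 lower. The member median was -0.36 in log2(FPKM + 1), beside 0.09 for all tested genes. All 3 etoposide libraries lay above DMSO for 3 members (7.64% of all tested genes did) and below it for 4 (8.17%). Those above were Epha2, Ephb1 and Efnb2, and those below were Sema5b, Plxnb1, Slit3 and Ntn3. Without etoposide library 3, 29 members were called, 8 higher and 21 lower, against 31.6% of all tested genes (18.3% higher and 13.3% lower). In that fit the higher members were Epha2, Efna1, Efna5, Efnb1, Efnb2, Ephb4, Unc5b and Plxnb2. Epha2 and Efna1 had DMSO means under 1 FPKM and reached the minimum only through the etoposide libraries. Leaving out any other library, DMSO library 3 included, gave 0 calls. The member median without library 3 was -0.61. Etoposide libraries 1 and 2 both lay above the DMSO range for 12 members and below it for 26, against 36% and 23.5% of all tested genes. Library 3 was inside the DMSO range for 23 members and outside it, on either side, for 36.

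Epha2 had the largest difference of the members. It was at 20.06, 10.33 and 0.60 FPKM in etoposide libraries 1, 2 and 3 and at 0.14, 0.38 and 0.16 FPKM with DMSO. Libraries 1 and 2 were far above DMSO and library 3 slightly above it, with a difference of 2.57 ± 0.78 (SE) in log2(FPKM + 1) (limma, adjusted p = 0.353, and 0.426 with no minimum level). Without library 3 the difference was 3.66 ± 0.30 (SE), a description only since the gene enters the fit through libraries 1 and 2, and the mean of libraries 1 and 2 was 67.0 times the DMSO mean. Its ligand Efna1 was at 5.51, 6.46 and 0.59 FPKM against 0.90, 0.71 and 0.82 FPKM, high in libraries 1 and 2 and under DMSO in library 3 (adjusted p = 0.357). Unc5b was at 11.32, 8.68 and 1.72 FPKM against 1.96, 4.38 and 1.67 FPKM, with library 3 inside the DMSO range (adjusted p = 0.407, and 0.0065 without library 3). Efnb2 was at 28.52, 48.90 and 19.58 FPKM against 17.35, 19.40 and 12.52 FPKM, and library 3 was only just above the highest DMSO library (adjusted p = 0.357, and 0.0181 without library 3). Plxnb2, the most abundant plexin of etoposide libraries 1 and 2, was at 86.87, 57.07 and 25.00 FPKM against 24.38, 25.48 and 32.01 FPKM, with library 3 inside the DMSO range (adjusted p = 0.369, and 0.00556 without library 3).

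Sema5b came closest to the threshold with all libraries. It was at 1.99, 1.85 and 3.01 FPKM with etoposide and 7.16, 7.32 and 8.10 FPKM with DMSO, so that all 3 etoposide libraries were low (3.30-fold lower, difference -1.39 ± 0.27 (SE), limma adjusted p = 0.0953). Plxnb1, the receptor of Sema4d, was also low in all 3, at 5.94, 4.37 and 8.95 FPKM against 18.83, 12.90 and 21.17 FPKM (adjusted p = 0.213). Without library 3 the adjusted p was 0.00197 for Sema5b and 0.00396 for Plxnb1. Plxnb3, under the minimum in this table, was at 0.02, 0.01 and 0.02 FPKM with etoposide and 0.69, 0.98 and 0.60 FPKM with DMSO and was not tested. Markers of the oligodendrocyte lineage were low in the same 3 libraries, as given above, and their part in these results was not tested.

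Other members were low mainly in etoposide libraries 1 and 2. Slit3 was at 3.08, 11.30 and 13.80 FPKM against 19.58, 19.48 and 14.43 FPKM, with library 3 only just under DMSO library 3 (adjusted p = 0.357, and 0.0305 without library 3). Robo2 was at 1.83, 2.91 and 7.71 FPKM against 8.58, 8.54 and 3.51 FPKM (adjusted p = 0.46, and 0.0373 without library 3). Dcc was at 0.96, 2.21 and 7.69 FPKM against 7.26, 8.69 and 2.89 FPKM (adjusted p = 0.457, and 0.0243 without library 3). Efnb3 was at 19.11, 46.45 and 118.69 FPKM against 81.62, 97.34 and 97.24 FPKM (adjusted p = 0.416, and 0.00814 without library 3). Library 3 held the highest Efnb3 level of the table. Neither Nrp1, at 19.28, 24.84 and 52.96 FPKM against 46.23, 50.43 and 19.49 FPKM, nor Epha4, at 10.18, 23.68 and 49.40 FPKM against 48.07, 42.33 and 22.83 FPKM, passed with or without library 3 (adjusted p = 0.195 and 0.0507 without it). In Robo2, Dcc, Nrp1 and Epha4, DMSO library 3 lay near etoposide library 1 or 2, and etoposide library 3 near DMSO libraries 1 and 2. Ntn1 was at 8.09, 5.41 and 2.23 FPKM against 4.15, 5.05 and 5.46 FPKM, with library 1 above, library 2 inside and library 3 below the DMSO range. None of the 50 effectors and none of the 28 other guidance genes was called with all libraries, with 4 and 8 at an unadjusted p under 0.05. Without library 3, 4 effectors were higher and 11 lower, and 1 other guidance gene was higher and 16 lower, against 18.3% and 13.3% of all tested genes.

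The models were compared through an interaction contrast in limma over the 12 libraries, in which the effect of etoposide is subtracted from that of H-Ras(G12V). It called 3 of 58 members, all in the positive direction, against 2.78% of all 12179 tested genes (2.5% positive). Sema5b had a contrast of 2.11 ± 0.26 (SE) in log2(FPKM + 1) (adjusted p = 0.000743), with the H-Ras(G12V) libraries above their controls and the etoposide libraries below theirs. This call held under each of the 21 alternatives run for it. Ntn1 had a contrast of 2.02 ± 0.45 (adjusted p = 0.0296). Plxnb1, at 26.47, 28.50 and 21.61 FPKM with H-Ras(G12V) and 19.12, 18.81 and 22.06 FPKM with mCherry, had a contrast of 1.68 ± 0.36 (adjusted p = 0.0234). The Ntn1 call ended on omitting H-Ras(G12V) library 2 (0.0913) or 3 (0.0944), mCherry library 1 (0.0763) or 2 (0.0696), DMSO library 1 (0.0593), 2 (0.0683) or 3 (0.0866), or etoposide library 2 (0.0579). The Plxnb1 call ended on omitting H-Ras(G12V) library 1 (0.0728) or 2 (0.0761), mCherry library 1 (0.0745) or 2 (0.0762), DMSO library 1 (0.0696) or 3 (0.066), or etoposide library 2 (0.0551). Plxnb1 was not called with H-Ras(G12V) alone (difference 0.33 ± 0.14, adjusted p = 0.147), and was called without mCherry library 3 (0.40 ± 0.13, adjusted p = 0.0414). The count was 15 without etoposide library 3, 7 positive and 8 negative, against 21.2% of all tested genes (9.67% and 11.6%). Without mCherry library 3 it was 6, 3 positive and 3 negative, against 6.63% (4.76% and 1.87%). With all libraries kept, medians of ratios gave 3 positive and 1 negative call (293 and 42 of all 12179 tested genes). The replicate block gave 2 positive and 1 negative (247 and 20). The positive direction of all calls thus holds for the main fit and not for each alternative. Sema3c was among the negative calls without etoposide library 3 (-1.86 ± 0.57, adjusted p = 0.0389) and without mCherry library 3 (-2.41 ± 0.47, adjusted p = 0.0111). Nrp1 was negative without mCherry library 3 (-2.27 ± 0.58, adjusted p = 0.0389), and Sema3e was positive without etoposide library 3 (2.79 ± 0.50, adjusted p = 0.00353). The count was 26 without both libraries, 10 positive and 16 negative, where 30.1% of all tested genes were called, an alternative chosen after the data were seen. Efnb2, higher in all etoposide libraries and lower with H-Ras(G12V), had a contrast of -1.52 ± 0.40 (adjusted p = 0.0681), and -1.88 ± 0.34 (adjusted p = 0.00217) without both libraries.

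**Figure D4:**
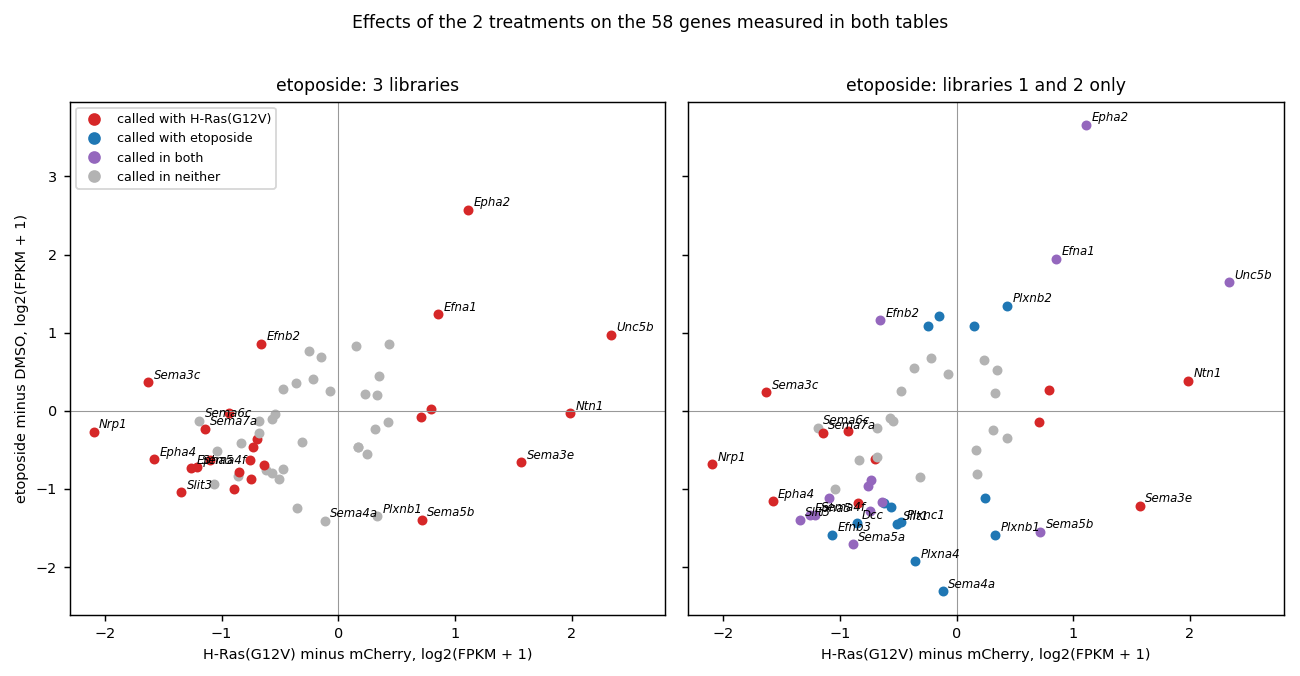
Difference of each of the 58 members measured in both tables with H-Ras(G12V) (x axis) and with etoposide (y axis), in log2(FPKM + 1), with all libraries (left) and without etoposide library 3 (right). Colour marks limma calls at an adjusted p under 0.05. Epha2, Efna1 and Unc5b lie in the upper right of both panels and Sema5b in the lower right.

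Among members of both tables that rose with H-Ras(G12V), Efna1, Epha2 and Unc5b were the 3 above the DMSO range in etoposide libraries 1 and 2. Sema5b was the 1 below it, and 4 (Ephb3, Ntn1, Ntn4 and Sema3e) overlapped with it. The share above the range was near the 36% of all tested genes. Plxnb3, which also rose but was under the minimum in the chemical table, lay below the DMSO range too (0.02 and 0.01 FPKM against 0.60 to 0.98 FPKM). Of the members that fell, 10 lay below the DMSO range in etoposide libraries 1 and 2 (Efna3, Epha5, Epha7, Plxna2, Robo2, Sema4d, Sema4f, Sema5a, Slit3 and Unc5a), Efnb2 lay above it, and 6 overlapped with it. Of all tested genes, 23.5% lay below and 36% above the DMSO range in those libraries. In etoposide library 3, Slit3 alone of the 10 lay below that range. The sizes of the differences were not alike in the 3 genes higher with H-Ras(G12V) and in etoposide libraries 1 and 2. Without etoposide library 3 the contrast was -2.55 ± 0.33 for Epha2 and -1.09 ± 0.24 for Efna1. These values are a description only, since both genes reached the minimum only through their higher groups. The contrast was 0.69 ± 0.38 for Unc5b (adjusted p = 0.21). Promoters of these 3 genes and of Sema5b are shown because their levels lay in the same or in opposite directions in the models. Sequences are the 250 bases before the start in RefSeq (mouse GRCm38.p6, another build than that of the files), 5′ to 3′ on the strand of the gene. The reference table held 54 of the 62 members. Capitals mark every match, on either strand, to the motifs searched: the AP-1 site TGANTCA, the cAMP response element TGACGTCA, the GC box GGGCGG, the ETS site CCGGAAG and the p53 half-site. None of these overlapped another in the 4 promoters.
Unc5b promoter, chr10:60831582-60831831, minus strand: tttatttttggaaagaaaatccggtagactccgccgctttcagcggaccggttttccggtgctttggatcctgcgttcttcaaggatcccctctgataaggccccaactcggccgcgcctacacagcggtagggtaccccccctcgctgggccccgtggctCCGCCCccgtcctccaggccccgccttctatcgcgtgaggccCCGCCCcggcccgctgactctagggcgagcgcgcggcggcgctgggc
Epha2 promoter, chr4:141300971-141301220, plus strand: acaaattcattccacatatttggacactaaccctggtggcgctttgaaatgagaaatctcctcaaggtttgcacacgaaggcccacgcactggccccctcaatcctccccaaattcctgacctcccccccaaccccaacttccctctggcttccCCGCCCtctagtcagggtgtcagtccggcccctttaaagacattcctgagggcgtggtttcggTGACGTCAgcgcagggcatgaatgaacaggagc
Efna1 promoter, chr3:89280952-89281201, minus strand: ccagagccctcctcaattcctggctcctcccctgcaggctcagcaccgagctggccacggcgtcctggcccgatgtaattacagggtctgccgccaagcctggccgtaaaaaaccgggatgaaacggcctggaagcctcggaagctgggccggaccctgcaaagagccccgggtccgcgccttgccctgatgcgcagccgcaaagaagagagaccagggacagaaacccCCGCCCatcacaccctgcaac
Sema5b promoter, chr16:35541112-35541361, plus strand: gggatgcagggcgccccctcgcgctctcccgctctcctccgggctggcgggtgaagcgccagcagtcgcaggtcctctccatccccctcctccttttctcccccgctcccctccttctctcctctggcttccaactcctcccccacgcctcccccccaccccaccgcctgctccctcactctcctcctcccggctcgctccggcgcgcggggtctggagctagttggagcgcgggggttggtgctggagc

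The Epha2 promoter held 1 cAMP response element, which begins 33 bases before the start, and 1 GC box. The element occurs in 1.55% of the 32851 promoters searched in the same way. GC boxes occur in 32.7% of them, and Unc5b held 2 and Efna1 held 1. Sema5b held no match in this window. AP-1, ETS and p53 half-site matches, found in 6.75%, 6.91% and 7.13% of all promoters, were in none of the 4 windows. For Efna1 the table has 2 starts and the more upstream one was used. A match describes these letters and says nothing of binding.

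Symbols that matched but stayed under the minimum complete the families. In the oncogene table Epha1, Ntn5, Robo3, Robo4, Sema3b and Sema3g stayed under 0.5 FPKM in every library, and Sema3f and Epha8 reached 1.5 and 1.95 FPKM in mCherry library 2. Sema3a, called higher with H-Ras(G12V), was under the minimum in the chemical table with a mean of 0.75 FPKM, and Epha8, at 1.34 FPKM, was the member closest above it there. Robo3, a divergent Robo receptor, was at 0.49, 0.50 and 0.08 FPKM with etoposide and 0.01, 0.05 and 0.04 FPKM with DMSO, all under the minimum and not tested.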

How the data were processed

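Poly(A)-enriched mRNA of 12 libraries was measured as FPKM. Each model has its own deposited table, whose values are FPKM per gene symbol, per the file headers, written to 2 decimals. Tools listed by the submitters' processing notes are RSEM, HISAT and Bowtie2, with the build mm9. Their versions and roles, and the strand of counting, are not given in the sources used here. Deposited values were not rescaled. Columns were matched to samples by name. Tests used log2(FPKM + 1), a scale that understates the change of low genes, for genes averaging 1 FPKM or more in a table. The fit was lmFit followed by eBayes(trend = TRUE) from limma 3.58.1 (R 4.3.3), two-sided, with Benjamini-Hochberg adjustment over all tested genes and a threshold of 0.05. Ratios are of group means of FPKM. The script was tested on simulated data. FPKM keeps no read counts, so depth was only estimated, from genes with 1 transcript in GENCODE M21 (GRCm38). Libraries of a group differed by more than sampling noise, with chi-square per degree of freedom of 3.60 for mCherry libraries 1 and 2 and 14.9 to 500.3 for the other pairs.

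Members, gene lists, named genes and alternatives were chosen with earlier results of these data known. Named members were up to 4 called per family and direction with the largest difference, the 2 most abundant per family and table, and those called in the interaction. Their values by library are given for the oncogene table, apart from Sema6b, which was named for its level in the chemical table. For the chemical table they are given for only part of the named members. From the effector and other guidance lists, up to 4 called genes per direction were named, and 1 effector is not reported here. The alternatives were other pseudocounts (0.1 and 5), other minimum levels, rescaling to a common sum or by medians of ratios, limma without trend, a replicate block, a single fit of all libraries, averaging mCherry libraries 1 and 2, and omitting each library.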

Additional observations from a re-analysis of the deposited data

Results flagged for a closer look

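The effects of the models differed by the interaction test for Sema5b, with a contrast of 2.11 in log2(FPKM + 1), for Ntn1, with 2.02, and for Plxnb1, with 1.68. The H-Ras(G12V) effect was the higher in all 3 genes. On omitting each of the 12 libraries in turn, the call held in 12 fits for Sema5b, 4 for Ntn1 and 5 for Plxnb1. In Sema5b all libraries moved up with H-Ras(G12V) and down with etoposide.

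Efnb2 was lower in all H-Ras(G12V) libraries, at 0.616 times the mCherry mean, and higher in all etoposide libraries. This opposition was picked from the ranges of the libraries, and the interaction contrast did not pass (limma, adjusted p = 0.0681). Plxnb3 was higher in all H-Ras(G12V) libraries, at 3.25 times the mCherry mean, and lower in all etoposide libraries, where it stood at 0.01 to 0.02 FPKM. The difference between the models was not tested for Plxnb3, whose mean in the etoposide table was under 1 FPKM.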

How the results depend on the processing

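Of 77 results for named members over 1199 alternatives, 1005 kept their direction and side of the threshold, 146 lost the call, 31 gained one and 17 changed sign. The members called with H-Ras(G12V) numbered 27, and 7 to 43 when each library was omitted in turn. They numbered 18 with no minimum level, 9 with mCherry libraries 1 and 2 averaged and 5 in a single fit of all libraries. Over all genes, averaging called 383 higher and 247 lower of 12724, and the single fit 221 and 86 of 12179. For etoposide the count was 0, and 0 to 29 on omission, with 2 in the single fit. In the interaction it was 3, and 1 to 15 on omission, with 1 after averaging the mCherry libraries and 26 without mCherry library 3 and etoposide library 3, an alternative chosen after seeing the data. Effectors called with H-Ras(G12V) numbered 7, and 2 to 29 on omission, 2 after averaging and 2 in the single fit, and those called with etoposide 0, and 0 to 15 on omission with 1 in the single fit.

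Signs changed only in etoposide differences that were not called. Ephb3 was at -0.0747 with the common sum and -0.0665 with medians of ratios, and Ntn1 at 0.0115 with a pseudocount of 5. On omitting each library, differences ranged from -0.32 to 0.27 for Epha3, -0.14 to 0.26 for Ephb3, -0.35 to 0.13 for Ephb6, -0.69 to 0.0217 for Nrp1, -1.003 to 0.13 for Nrp2, -0.37 to 0.38 for Ntn1, -0.16 to 0.0695 for Ntn4, -0.0412 to 0.58 for Sema3c and -0.84 to 0.13 for Slit2. The cause was not tested.

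Replicate numbers did not pair the libraries. Correlations of deviations between same-numbered libraries were -0.04, 0.03 and 0.12 in the oncogene table and -0.26, -0.17 and -0.15 in the chemical table, and not every library correlated best with its own number. With the replicate block, 27 members were called with H-Ras(G12V), 0 with etoposide and 3 in the interaction (2 positive and 1 negative). Calls over all genes went from 1312 higher and 849 lower to 1010 and 671 with H-Ras(G12V), and from 56 to 12 with etoposide. Under it the adjusted p (limma) was 0.0548 for Epha3, 0.0617 for Unc5a, 0.0307 for Efnb3 and 0.0837 for the Ntn1 contrast. With 3 libraries a group, 3 of the groups with a library apart, and no read counts, small differences could not be resolved.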
